A study of Mus musculus with 3 samples.

Results

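Dense clusters of Notch2 peaks in the embryonic mouse kidney are described here. They were chosen by position alone in the peak list of replicate 1: exact repeated rows were dropped, peaks of 1 chromosome whose edges lay within 12.5 kb were joined, and clusters of 5 or more peaks were kept. These were 329 clusters with 2080 of the 28651 peaks of replicate 1, or 7.26%. A further 4676 peaks lay in clusters of 3 or 4, 6868 in pairs, and 15027 stood alone. Chromatin of whole kidneys at stage E16.5, crosslinked and precipitated with an antibody against Notch2, was sequenced in 2 replicates, and 1 input sample of kidney DNA accompanied them. No genotype, strain or treatment is given for any sample, and nothing in the labels ties the replicates to different litters or pools of kidneys, so the comparison of lists measures these samples alone. A peak is a stretch with an excess of sequenced fragments, and the deposited lists give its chromosome, start and end on the mm9 build without a height, score or p-value. Read depth is therefore unknown.

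Notch2 is a receptor at the cell surface. When a ligand on a neighbouring cell binds it, its intracellular part is cut free, enters the nucleus and joins the DNA-binding protein RBPJ and coactivators at promoters and enhancers. In the forming nephron, signalling through Notch2 takes part in patterning of the proximal segments. Stretches with many closely spaced binding sites of a regulator are commonly found around genes that control development, where several enhancers lie near each other.

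The clusters were compact. Their spans, from the start of the first peak to the end of the last, ranged from 8.08 to 110.666 kb, with a median of 29.0 kb and an interquartile range of 22.6 to 37.1 kb. Together they took up 10.4 Mb, or 0.405% of the chromosomes between their outermost peaks. The gap between the edges of neighbouring peaks had a median of 4.09 kb over 1751 gaps, against 5.05 kb in pairs and 4.93 kb in clusters of 3 or 4. In the 22 clusters of 10 or more peaks it was 3.50 kb. Of the gaps, 205 (11.7%) measured under 1 kb, and none in the whole list measured under 500 bp. The peaks themselves covered a median of 17.5% of a span, and up to 55.7%. These values follow from the joining rule and carry no test.

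Most clusters were small. There were 171 with exactly 5 peaks, 232 with 5 or 6, 75 with 7 to 9 and 22 with 10 or more. A replicate 1 peak is called reproduced here where at least 1 bp of it lay in a replicate 2 peak, which held for 33.0% of all 28651. Just below the limit of size stood 374 clusters of 4 peaks, in which 39.8% of peaks were reproduced (95% Wilson interval 37.4 to 42.3%), beside 42.3% in the clusters of 5 (39.1 to 45.7%). Near the limit of distance, 34 gaps inside clusters measured 12 to 12.5 kb and 22 cluster edges lay 12.5 to 13 kb from the next peak. The narrowest spans were on chromosome 12 from 112665734 to 112673813 (8.08 kb), chromosome 14 from 22804653 to 22814197 (9.54 kb) and chromosome 10 from 22635478 to 22646372 (10.9 kb), each with 5 peaks. Of these 5 peaks replicate 2 overlapped 0, 3 and 3.

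The 3 clusters with most peaks were also the 3 widest. The first lay on chromosome 6 from 52110760 to 52221425 and held 29 peaks. The second lay on chromosome 11 from 96120379 to 96216206, a span of 95.8 kb with 20 peaks, and the third on chromosome 15 from 102784692 to 102866223, a span of 81.5 kb with 16 peaks. From general knowledge of the mouse genome, and not from an mm9 annotation, which was not used here, these stretches lie in the HoxA, HoxB and HoxC gene clusters. Hox genes encode homeodomain transcription factors that set position along the body axis, and several of them act in kidney formation. In a RefSeq gene table of another build, the 11 Hoxa genes of chromosome 6, the 10 Hoxb genes of chromosome 11, the 9 Hoxc genes of chromosome 15 and the 9 Hoxd genes of chromosome 2 each follow one another with 0 other protein-coding genes between. By the same knowledge, HoxD holds a pair of clusters on chromosome 2, from 74515776 to 74542997 with 10 peaks and from 74559772 to 74591675 with 8. The HoxD pair was picked by its name, and no other value below rests on these names.

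Next by number of peaks came chromosome 11 from 120041255 to 120105232 with 15 peaks, and chromosome 12 from 80979883 to 81050740 and chromosome 1 from 152839151 to 152914112 with 14 each. Clusters of 13 peaks lay on chromosome 4 from 144565079 to 144628481 and on chromosome 2 from 110007533 to 110071329 and from 26330497 to 26403636. The remaining 3 of the first 12 lay on chromosome 8 from 123858702 to 123917316 with 12 peaks, chromosome 7 from 29696536 to 29745578 with 11 and chromosome 2 from 75905872 to 75961310 with 11. Equal numbers were ordered by the shorter span, here and below, which left out a pair of clusters that also had 11 peaks, on chromosome 13 from 63369460 to 63439219 and on chromosome 14 from 23396404 to 23471289. Replicate 2 overlapped 6 of the 15 peaks of the chromosome 11 cluster, 8 of 14 on chromosome 12 and 7 of 14 on chromosome 1. For the other clusters, in the order named, it overlapped 3, 7, 4, 5, 2 and 9 peaks. The clusters therefore ranged widely in how far replicate 2 marked the same sites.

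**Figure D1:**
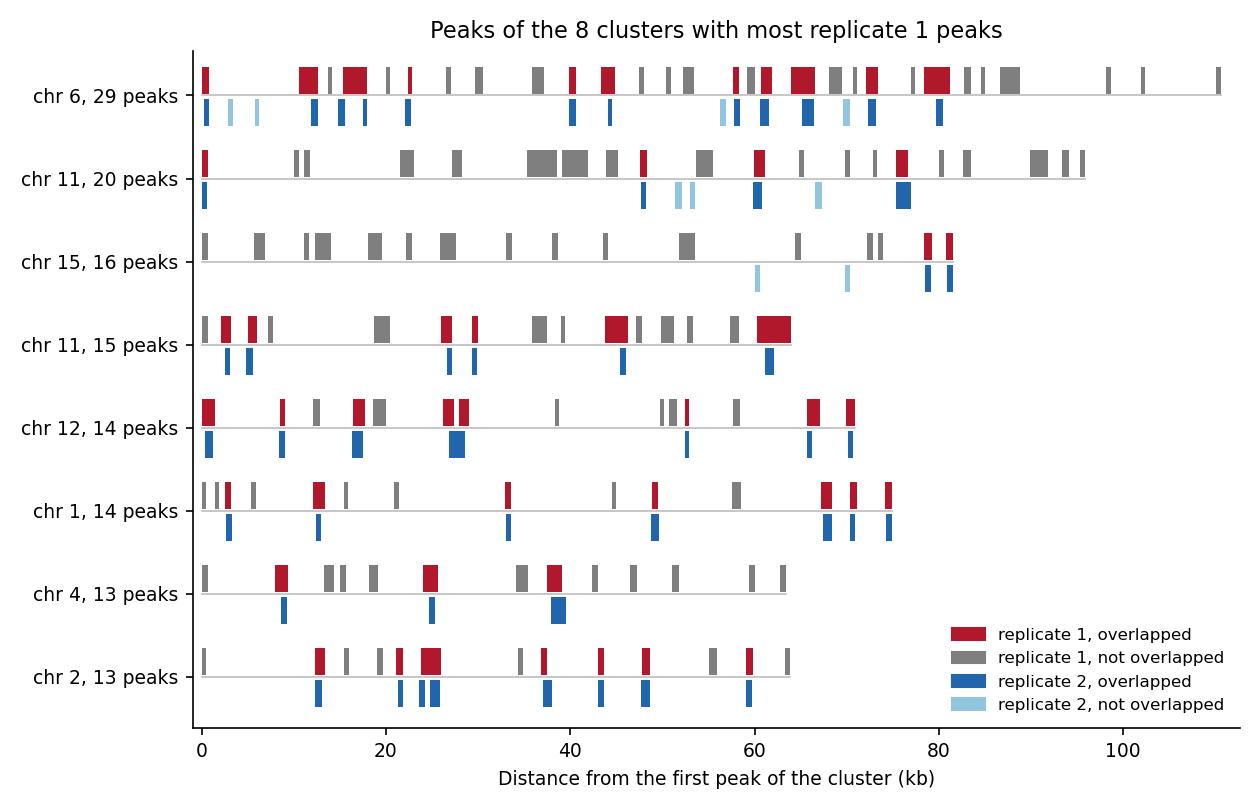
Peaks of the 8 clusters with most replicate 1 peaks, drawn to scale by distance in kb from the first peak of each cluster, with replicate 1 above the line and replicate 2 below. Red and dark blue mark peaks that overlap a peak of the other replicate by at least 1 bp: 11 of 29 on chromosome 6, 4 of 20 on chromosome 11 and 2 of 16 on chromosome 15.

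Replicate 2 entered no step of the rule that chose the clusters, though whether its kidneys were separate from those of replicate 1 is unknown. In the clusters 848 of 2080 peaks were reproduced, a share of 40.8% (95% Wilson interval 38.7 to 42.9%). Lone peaks were reproduced in 4541 of 15027 cases, or 30.2% (29.5 to 31.0%). The difference was 10.6 percentage points (95% Newcombe interval 8.33 to 12.8), and it was 7.52 to 13.6 points with the cluster instead of the peak as the unit. These intervals cover counting error in 1 pair of lists and not variation between samples.

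The share was higher with more peaks joined, in small steps. It was 34.1% in pairs (95% Wilson interval 33.0 to 35.2%), 3.87 points above lone peaks (95% Newcombe interval 2.53 to 5.21), and 37.2% in clusters of 3 or 4 (35.8 to 38.6%). Clusters of 5 or more stood 3.58 points above those of 3 or 4 (95% Newcombe interval 1.06 to 6.11). Within the clusters of 5 or more the steps were not separated: the share was 40.1% in clusters of 5 or 6, 41.0% in those of 7 to 9 and 43.1% in those of 10 or more. The last class exceeded the first of these by 2.98 points, with an interval of -3.31 to 9.40. The intervals of all these shares and steps take the peak as the unit. Neighbours tended to be reproduced together, as given below, so the intervals can be too narrow.

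**Figure D2:**
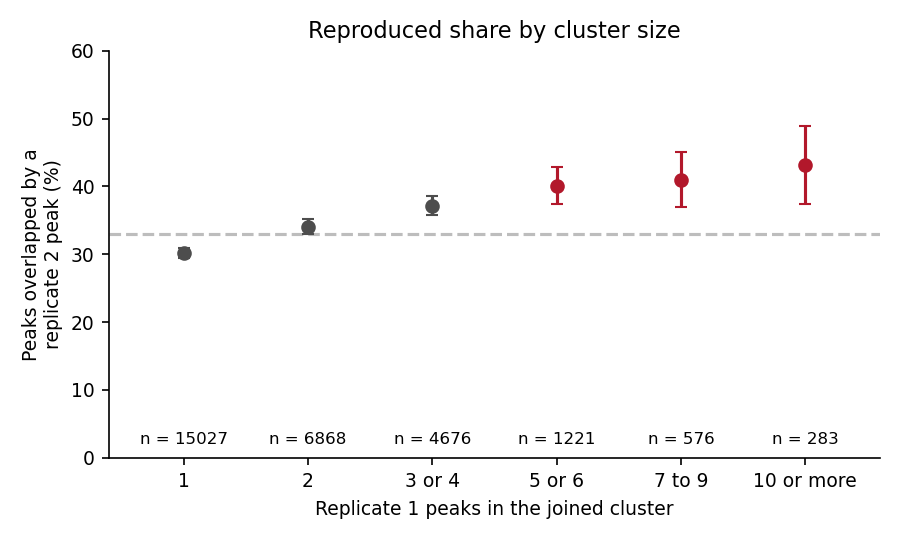
Share of replicate 1 peaks overlapped by a replicate 2 peak, in percent, by the number of peaks in the joined cluster, with 95% Wilson intervals; the dashed line is the share of all peaks, 33.0%. The share goes from 30.2% for lone peaks to 43.1% in clusters of 10 or more, where the interval is widest.

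Clustered peaks stood earlier in the replicate 1 list and were wider than lone peaks. The meaning of the order of the list is not given in the sources used here, but peaks at its head were more often reproduced. Of the clustered peaks 39.4% were in the first of 4 equal parts of the list, against 20.7% of the lone peaks, and 17.9% against 27.3% were in the last part. In pairs 26.2% were in the first part and in clusters of 3 or 4 30.6%, so this share rose with the number of joined peaks, as the reproduced share did. Median width was 760 bp in clusters (interquartile range 626 to 1049 bp) and 632 bp for lone peaks (500 to 805 bp). Peaks of the smallest width, 500 bp, made up 22.5% of the clustered and 35.0% of the lone peaks. Place and width come from the same list as the clusters, so they are given without a test.

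At like place in the list, clustered and lone peaks were reproduced to a similar extent. In the first part 560 of 819 clustered peaks were reproduced, or 68.4% (95% Wilson interval 65.1 to 71.5%), and 67.9% of 3112 lone peaks (66.3 to 69.5%). Within this part clustered peaks still stood earlier, at a median place of 2894 against 3929.5. In the second part the shares were 35.6 and 33.7%, in the third 17.2 and 18.2%, and in the last 11.3 and 10.4%. Weighted over the 4 parts by the clustered peaks, the difference was 0.63 points (95% interval -1.38 to 2.64), and weighted over 10 parts of the list it was -1.17 points (-3.10 to 0.76). The difference of 10.6 points was thus not seen between peaks of like place. By size, the difference from lone peaks over the 4 parts was 0.26 points in clusters of 5 or 6, 1.02 in those of 7 to 9 and 1.47 in those of 10 or more. The intervals of these values included 0. Under stricter matching the difference over the 4 parts was -2.22 points (-4.26 to -0.18) with overlap of 50% of both peaks. It was -3.08 points (-4.93 to -1.24) with centres within 100 bp. With clusters rebuilt from the first 50% of the replicate 1 list the difference was 5.20 points over the 4 parts (1.14 to 9.25) and 1.67 over 10 parts (-2.19 to 5.52). All these weighted intervals take the peak as the unit. Neighbours in a cluster tended to be reproduced together, as given below, so the intervals can be too narrow. None was computed with the cluster as the unit.

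At like width alone a difference remained for the wider peaks. At a width of 848 bp or more, 59.1% of 812 clustered peaks were reproduced (95% Wilson interval 55.7 to 62.4%), against 48.3% of 3187 lone peaks (46.6 to 50.03%), a difference of 10.8 points (95% Newcombe interval 6.99 to 14.6). Between 637 and 847 bp the shares were 39.6 and 31.5%, a difference of 8.15 points (3.71 to 12.7). For narrower peaks the intervals of the difference included 0, with 31.1 against 35.0% at 625 to 636 bp and 16.3 against 15.8% at 500 bp. Weighted over these 4 classes of width the difference was 5.74 points (3.58 to 7.89). Weighted over the 4 parts of the list and the classes of width together it was 0.63 points (-1.38 to 2.64). The difference at like width was thus not seen at like width and place. Clustered peaks of the widest class also stood earlier in the list, at a median place of 3645.5 against 6070 for lone peaks of that class.

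**Figure D3:**
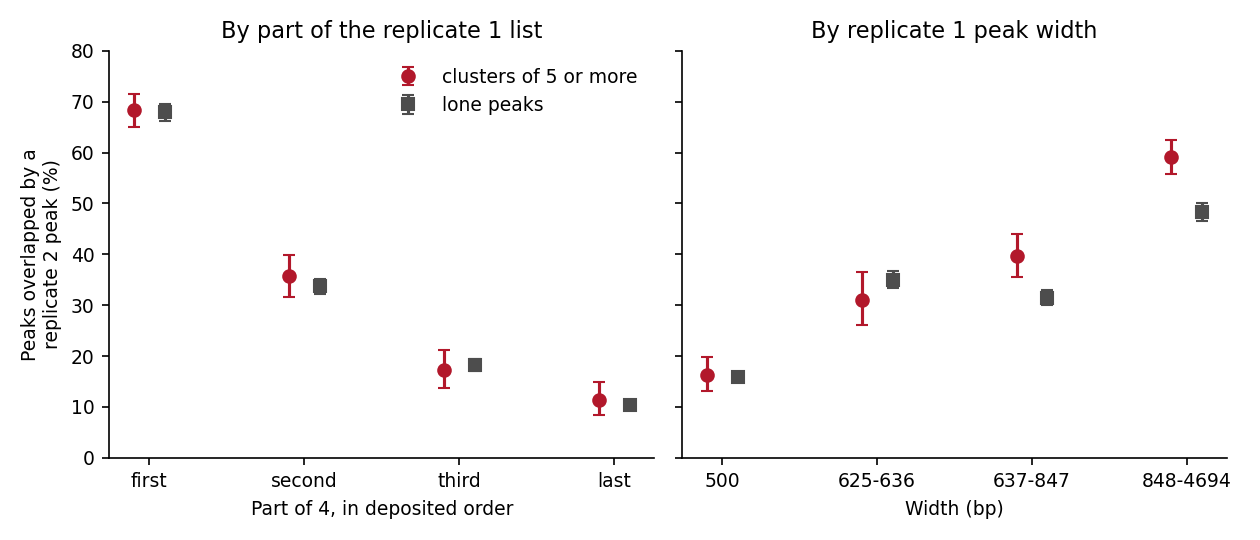
Share of replicate 1 peaks overlapped by a replicate 2 peak, in percent with 95% Wilson intervals, for peaks in clusters of 5 or more and lone peaks, by 4 equal parts of the replicate 1 list in order (left) and by peak width in bp (right). The intervals of both groups overlap in all 4 parts, whereas at 848 bp and wider clustered peaks reach 59.1% and lone peaks 48.3%.

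The reproduced share varied widely from cluster to cluster. Since 171 of the clusters had 5 peaks, each share rests on few peaks, and the part of this spread due to counting error was not measured. The reproduced share per cluster had a mean of 40.8% ± 28.0 (SD over 329 clusters) and a median of 40%, with an interquartile range of 20 to 60%. In 54 clusters (16.4%) no peak was reproduced, in 48 a single peak was, and in 227 at least 2 were. More than 50% of the peaks were reproduced in 108 clusters, and every peak was in 11, of which 10 had 5 peaks. The exception, with 7 of 7, lay on chromosome 7 from 78601800 to 78646254. Among the 22 clusters of 10 or more peaks, 13 had at least 5 reproduced peaks and 1 had none.

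To set each cluster against its own place in the list, the number of reproduced peaks was compared with the number its peaks would have at the shares of lone peaks in the same 10 parts of the list. Summed over clusters these were 848 observed and 872 at the shares of lone peaks. Single clusters departed from this number by -5.54 to 3.97 peaks, with an SD of 1.42, and 156 lay above it and 173 below. The number was exceeded by 2 or more peaks in 23 clusters and missed by 2 or more in 21. The chromosome 11 cluster of 20 peaks stood lowest, with 4 reproduced peaks against 9.54. The chromosome 15 cluster of 16 peaks had 2 against 5.50, and the chromosome 6 cluster of 29 peaks had 11 against 12.7. Of the pair of chromosome 2 clusters assigned to HoxD, the first had 2 of 10 against 4.54 and the second 3 of 8 against 3.21. Highest stood the chromosome 7 cluster from 78513234 to 78556912, with 9 against 5.03. No test was made for single clusters, and the part of the SD due to counting error was not measured.

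**Figure D4:**
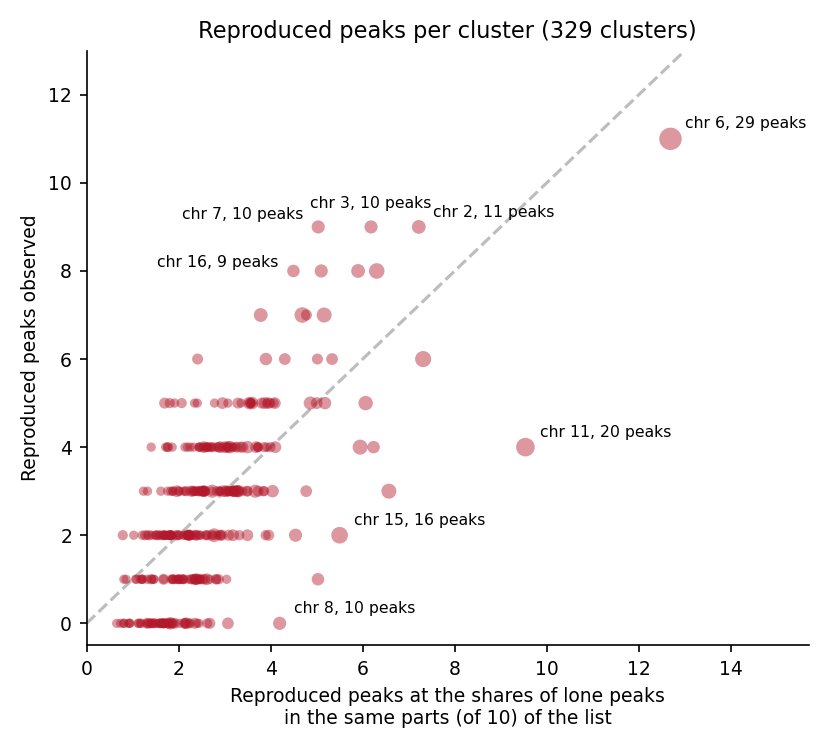
Reproduced peaks observed in each of the 329 clusters (vertical axis) against the number at the shares of lone peaks in the same 10 parts of the list (horizontal axis); the area of a point grows with the number of peaks and the dashed line marks equal numbers. Chromosomes 3, 7 and 16 hold clusters above the line, and the 20-peak cluster of chromosome 11 lies farthest below it, at 4 against 9.54.

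Some of the clusters with most reproduced peaks had nearly all of their peaks in both lists. On chromosome 3 from 29973385 to 30012866, 9 of 10 peaks were reproduced, and the one without a counterpart was 660 bp wide and ran from 30005223 to 30005882. This stretch lies at Mecom by general knowledge, a gene for a zinc finger transcription factor. All 7 peaks of this cluster in the first of the 4 parts of the list were reproduced, and replicate 2 had 9 peaks in the span, none of them outside a replicate 1 peak. The peak of best place, from 30006792 to 30007966, was at place 98 in replicate 1 and 281 in replicate 2. At the other end, the 500 bp peak from 29977896 to 29978395 stood at place 27093 in replicate 1 and its counterpart at 12169 in replicate 2, so that sites near the end of both lists matched here too.

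Chromosome 7 held a run of such clusters. From 78513234 to 78556912 replicate 1 had 10 peaks, of 625 to 2763 bp, and replicate 2 had 10 peaks, of 628 to 3178 bp. Of the replicate 1 peaks 9 were reproduced. The widest, from 78543781 to 78546543, was at place 66 in replicate 1 and 13 in replicate 2. The cluster from 78359366 to 78400713 had 8 of 10 peaks reproduced. The 3 clusters from 78513234 to 78686956, the one with 7 of 7 peaks among them, formed a stretch of 174 kb in which 20 of 22 peaks were reproduced.

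On chromosome 2 from 75905872 to 75961310, 9 of 11 peaks were reproduced, and all 7 peaks of the first part were. The peak from 75954976 to 75957271 was at place 5 in replicate 1 and 9 in replicate 2, and the peak from 75935539 to 75938566 at places 13 and 11. Here 6 of the 11 peaks were wider than 1 kb, up to 3028 bp, and the peaks without a counterpart measured 630 and 701 bp.

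On chromosome 16 from 30050537 to 30082613, 8 of 9 peaks were reproduced by 7 peaks of replicate 2. By general knowledge this stretch holds Hes1, which encodes a transcriptional repressor and is a direct target of Notch signalling in many tissues. The central peak, from 30063912 to 30067016, was 3105 bp wide at place 17 in replicate 1 and met a peak of 2298 bp at place 3 in replicate 2. A second wide peak, from 30059116 to 30061153, measured 2038 bp and its counterpart 1810 bp. Neighbouring peaks of replicate 1, from 30069473 to 30070123 and from 30070743 to 30071379, were both overlapped by 1 replicate 2 peak of 1031 bp, from 30069766 to 30070796. The median gap in this cluster, 1.52 kb, was shorter than the 4.09 kb over all gaps.

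Chromosomes 12 and 14 gave the others of the 10 clusters with most reproduced peaks, beside those of chromosomes 2 and 7 named above. The last of the 10 had 7 reproduced peaks, as had a pair of wider clusters left out by the order of spans, on chromosome 13 from 63369460 (7 of 11) and on chromosome 1 from 152839151 (7 of 14). On chromosome 2 from 110007533, 7 of 13 peaks were reproduced. On chromosome 12 from 80979883 to 81050740, 8 of 14 were. On chromosome 14 from 23396404 to 23471289, 8 of 11 were. A second cluster of chromosome 14, from 23563835 to 23606146, held the peak at place 1 of the replicate 1 list and had 6 of 8 peaks reproduced.

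In the largest cluster, on chromosome 6, replicate 2 had 16 peaks, which fell into 2 groups. From 52111002 to 52133485 there were 7 replicate 2 peaks beside 6 of replicate 1, of which 4 were reproduced. From 52150645 to 52191184 there were 9 replicate 2 peaks beside 14 of replicate 1, of which 7 were reproduced. Between these groups, replicate 1 had 3 peaks and replicate 2 none. In the last 30.2 kb, to 52221425, replicate 1 had 6 peaks and replicate 2 none, and the replicate 1 peaks there had a median width of 628.5 bp and a median place of 19603. The peak of best place, from 52174731 to 52177309, measured 2579 bp at place 68, and its counterpart measured 1282 bp at place 164. Of the 16 replicate 2 peaks 4 met no peak of replicate 1, among them one of 759 bp at place 527, from 52180388 to 52181146.

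The clusters of chromosomes 11 and 15 held wide peaks of replicate 1 with no counterpart. On chromosome 11 the widest peaks, from 96155733 to 96158914 (3182 bp, place 638) and from 96159535 to 96162258 (2724 bp, place 1283), were not reproduced. Of the 9 peaks of this cluster in the first of the 4 parts of the list 3 were reproduced, whereas 67.9% of lone peaks in that part were. The reproduced peak from 96180295 to 96181464, at place 229, met a replicate 2 peak at place 64. Replicate 2 had 7 peaks in this span, and 3 of them met no replicate 1 peak. On chromosome 15, 6 peaks were in the first part and 2 of them were reproduced, both at the end of the span, from 102863119 to 102866223. The peak of best place there, from 102810528 to 102812308 (1781 bp, place 2651), had no counterpart.

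Of the 54 clusters without a reproduced peak, 49 had no replicate 2 peak in their span at all. Their peaks stood later in the list, with the best peak of a cluster at a median place of 4712, against 1537 in the 275 clusters with a reproduced peak. The one with most peaks was on chromosome 8 from 122932145 to 122998540, with 10 peaks of 500 to 1985 bp. Of these, 5 were in the first of the 4 parts of the list, the best at place 530. At the shares of lone peaks 4.20 reproduced peaks would correspond to it. The next lay on chromosome 2 from 115873114 to 115904150 (9 peaks, with 2 replicate 2 peaks in the gaps), chromosome 8 from 11375856 to 11406854 (8 peaks), chromosome 19 from 3638737 to 3682020 (8 peaks) and chromosome 15 from 77651105 to 77673423 (7 peaks). The last of these was the shortest of several clusters of 7 peaks without a reproduced one. The cause of such gaps in replicate 2 was not tested, and with unknown depth a site below the threshold of replicate 2 cannot be told from an unoccupied one.

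Within clusters, the peak that came first in the list was the one most often reproduced. It was reproduced in 227 of 329 clusters, a share of 69.0% (95% Wilson interval 63.8 to 73.8%). The share was 56.8% for the second peak of a cluster, 42.2% for the third, 37.1% for the fourth, 25.2% for the fifth and 20.7% for later ones. The first peaks had a median width of 1175 bp and the fifth of 629 bp. In the first of the 4 parts of the list stood 91.2% of the first peaks and 10.9% of the fifth. Of lone peaks in that part 67.9% were reproduced. The order was set by place in the list, which goes with reproduction in lone peaks too, so the fall is a description.

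Reproduction also ran together between neighbours. A clustered peak whose nearest neighbour in the cluster was reproduced was itself reproduced in 52.3% of 854 cases (95% Wilson interval 49.0 to 55.7%). Beside any other neighbour it was reproduced in 32.7% of 1226 (30.1 to 35.4%). In the first part of the list the shares were 80.3% of 376 peaks against 58.2% of 443, and in the second 47.2 against 28.2%. Within the first part the peaks beside a reproduced neighbour still stood earlier, at a median place of 2530.5 against 3298, whereas in the second part these were 10426 and 10462.5. The difference was 19.6 points over all clustered peaks, 16.4 weighted over the 4 parts and 14.9 weighted over 10 parts, the weighted values chosen after the data were seen. In the third part the shares were 21.7 and 14.6% and in the last 15.4 and 8.73%, where the intervals overlapped. Neighbours can be counted in both directions and a wide replicate 2 peak can overlap both of them, so these shares are a description.

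**Figure D5:**
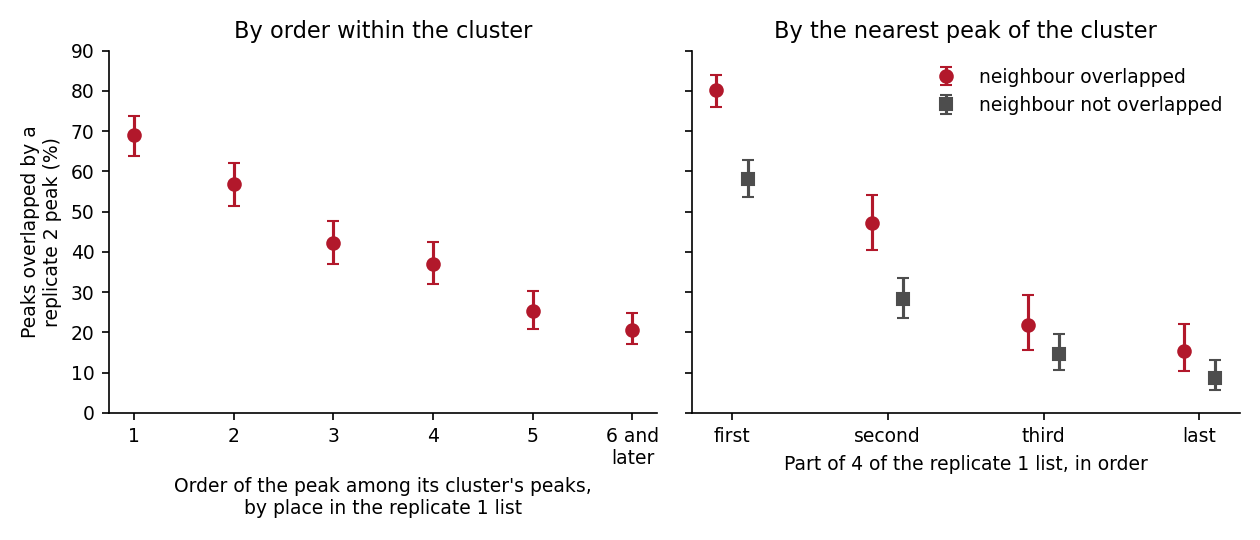
Share of clustered replicate 1 peaks overlapped by a replicate 2 peak, in percent with 95% Wilson intervals, by the order of the peak among those of its cluster (left) and by whether the nearest peak of the cluster was overlapped, within 4 parts of the list (right). The share falls from 69.0% for the first peak of a cluster to 20.7% for the sixth and later, and in the first part it is 80.3% beside an overlapped neighbour and 58.2% beside one that was not. The order on the left is that of place in the replicate 1 list, which goes with the share in lone peaks too.

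Taken over the whole list, outer and inner peaks of a cluster were close in share. The outermost peaks were reproduced in 40.0% of 658 cases (95% Wilson interval 36.3 to 43.8%) and the inner ones in 41.1% of 1422 (38.6 to 43.7%). In the first part of the list the shares were 68.6 and 68.3%, and in the second 41.2 and 32.9%. In the third they were 15.9 and 17.9%, and in the last 7.76 and 12.9%. The direction thus differed between parts, and no interval of these differences was computed. By the gap to the nearest neighbour there was no even trend, with 38.8% of 374 peaks under 1 kb, 47.4% of 625 from 1 to 2.5 kb, 35.5% of 524 from 2.5 to 5 kb and 39.7% of 557 beyond 5 kb.

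The cluster spans contained 913 of the 12585 replicate 2 peaks, or 7.25%, on 0.405% of the chromosomes. This is 88.0 per Mb (95% exact Poisson interval 82.4 to 93.9), against 4.92 per Mb over all chromosomes. Since each span holds at least 5 replicate 1 peaks by choice, a density above that of all chromosomes follows from the rule and is a description. Per Mb of replicate 1 peak, replicate 2 had 455 peaks in clusters (95% exact Poisson interval 425 to 486) and 417 at lone peaks (405 to 430). These intervals overlapped, which does not decide whether the densities differed, and no interval of the difference was computed. Clustered peaks were also wider, with a median of 760 bp against 632 bp for lone peaks, and the densities were not matched for width. The median cluster held 3 replicate 2 peaks and the highest number was 16. Of the 913, 851 met a replicate 1 peak, or 93.2% (95% Wilson interval 91.4 to 94.7%), and over all replicate 2 peaks the share was 75.5%. This higher share follows from the choice of the spans too.

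Inside the spans the replicate 2 signal was concentrated on the replicate 1 peaks. Replicate 2 peaks covered 32.3% of the bases of clustered replicate 1 peaks and 1.03% of the bases in the gaps between them. Lone replicate 1 peaks were covered to 25.1%. Replicate 2 peaks that met no replicate 1 peak were nevertheless more frequent in the gaps than beside lone peaks. There were 62 in the gaps, or 7.29 per Mb (95% exact Poisson interval 5.59 to 9.35). Within 6.25 kb of lone peaks there were 2.502 per Mb (2.28 to 2.74), within 12.5 kb 2.22 per Mb (2.07 to 2.38), and over all chromosomes 1.20 per Mb. The intervals for gaps and for flanks of lone peaks did not overlap. However, the gaps lie between peaks and had a median length of 4.09 kb. Their bases and those of the flanks were not matched for distance from a replicate 1 peak, so these densities are a description.

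Joined by the same rule, the replicate 2 list formed 59 clusters of 5 or more peaks with 362 of its peaks, or 2.88%. Of these clusters 45 (76.3%) overlapped a replicate 1 cluster, and 44 (13.4%) of the 329 replicate 1 clusters overlapped one of replicate 2. Replicate 2 had the shorter list, with 12585 against 28651 peaks, and formed fewer clusters, which limits the second share. Spans counted as overlapping from 1 bp. The 44 included, by number of replicate 2 peaks in the span, those of chromosome 6 (16), chromosome 7 from 78513234 (10) and from 78359366 (8), chromosome 2 from 75905872 (10) and from 110007533 (8), chromosome 3 (9), chromosome 14 from 23563835 (8) and from 23396404 (8), and chromosome 16 (7). A cluster of chromosome 12, from 72712541 to 72741897, had 7 replicate 2 peaks beside 5 of replicate 1. The chromosome 15 cluster of 16 peaks was not among them.

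Where clustered peaks were reproduced, their counterparts stood earlier in the replicate 2 list than those of lone peaks. The median place was 3999 for 857 overlapping pairs in clusters and 5891 for 4563 pairs of lone peaks. The replicate 1 peaks of these pairs also stood earlier, at 3904 and 7807. Among pairs whose replicate 1 peak was in the first part, the median place in replicate 2 was 2517 and 3437 and that in replicate 1 was 2100 and 3204, so both lists differed in the same direction. In that part the counterparts had a median width of 746 bp in clusters and 642 bp for lone peaks. Centres matched less closely in clusters, with a median distance of 112.5 bp against 89 bp in the first part, and 45.7 against 54.8% of pairs within 100 bp. Replicate 1 peaks of these pairs were also wider in clusters, at a median of 1075 against 919 bp, and the part of width in this was not tested.

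The clusters were spread over the 19 autosomes, with none on the X chromosome. Members made up 11.2% of the peaks of chromosome 12 (95% Wilson interval 9.53 to 13.0%) and 3.27% of those of chromosome 16 (2.37 to 4.49%), the extremes among autosomes. On the X chromosome 0 of 365 peaks were members, with a 95% Wilson upper limit of 1.04%. The limit that a count of 0 allows, taken as 3 peaks of the 365, is 0.822%. These intervals and limits take the peak as the unit, whereas the joining rule makes peaks members only as whole clusters. The intervals can therefore be too narrow and the upper limits too low. Membership is an outcome of that rule, so the differences between chromosomes are a description. Chromosome 2 had most clusters, 31, and chromosome 16 the fewest, 6. The reproduced share of members was highest on chromosome 3, with 47 of 80 (47.8 to 68.9%), and lowest on chromosome 19, with 17 of 84 (13.0 to 30.0%), extremes picked after the values were seen. Over all peaks these chromosomes had 38.4 and 29.6%. The intervals of the reproduced shares of members also take the peak as the unit. They can be too narrow, since neighbours tended to be reproduced together.

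Some clusters lay close together. Those within 100 kb of another formed 27 stretches with 59 clusters and 415 peaks, of which 42.4% were reproduced (95% Wilson interval 37.7 to 47.2%), a share like that of all members. Among stretches the reproduced share ranged from 0 to 90.9%, and this spread was not set against that of single clusters. The stretches named here were picked after their values were seen. On chromosome 14 from 23396404 to 23642940, 18 of 24 peaks in 3 clusters were reproduced. On chromosome 8 from 129021718 to 129193503, 4 of 18 in 3 clusters were, and on chromosome 8 from 122932145 to 123042502, 0 of 15 in a pair of clusters.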

How the data were processed

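Notch2 ChIP-seq of 2 replicates and 1 input was labelled, and the 2 peak lists were analysed. The submitters' processing notes name Bowtie, SAMtools, HOMER and the mm9 build, with no version or role. How peaks were called and whether the input was used is not given in the sources used here. Per replicate, the authors deposited 1 list, with 3 columns (chromosome, start, end in bp) and no score. Positions are counted from 1. Of 28893 and 13065 rows, 242 and 480 repeated another row and were dropped. Depth is unknown, and intervals cover counting error only.

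Peaks were joined and overlaps counted with Python 3.11.15, numpy 2.4.6, pandas 2.3.3 and scipy 1.17.1, and figures drawn with matplotlib 3.10.9. On 10 simulated lists joining and overlap were tested against bedtools 2.31.1. Shares have Wilson intervals at 95%, differences Newcombe intervals, and weighted differences normal intervals with the clustered peaks of each stratum as weights. The peak is the unit of these intervals except where the cluster is named as the unit. The density intervals are exact Poisson ones. Clusters named were the 12 with most peaks, the 10 with most reproduced peaks, the 5 with most peaks and none reproduced, the 3 widest and 3 narrowest, and 10 in replicate 2 clusters, with ties ordered by the shorter span. The HoxD clusters and stretches were added after their values were seen. Members and comparisons were chosen with earlier results of these data known. Gene content and RBPJ motifs were planned and not run, since no mm9 annotation or sequence was used here.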

Additional observations from a re-analysis of the deposited data

How the results depend on the processing

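The difference between clustered and lone peaks kept its direction in 16 of 16 alternatives, at 2.05 (centres within 100 bp) to 11.7 points. The intervals excluded 0, but apart from the alternative with the cluster as unit they take the peak as the unit. For centres within 100 bp the interval was 0.26 to 3.94, and whether it would exclude 0 with the cluster as unit was not computed. The difference was 5.997 with overlap of 50% of both peaks and 5.41 with clusters chosen in replicate 2. At like place in the list the difference was lower, up to 5.20 points over 4 parts, and its sign varied. Weighted over 4 parts it was 0.63, and it passed 0 by its interval at 1.29 with clusters of 3 or more, 5.20 in the first 50% of replicate 1 by list order and 2.32 with the first 50% of replicate 2, as it did at 5.74 over width classes. It turned negative at -1.33 with joining within 5 kb, -2.22 with 50% overlap, -3.08 with centres within 100 bp and -2.07 with clusters from replicate 2. Weighted over 10 parts it was -1.17, and, in the order of alternatives, -3.71 (5 kb), -0.60 (25 kb), -1.005 (7 or more peaks), -2.09 (upper 50% by width), -1.11 (without the cluster with most peaks), -1.07 (autosomes), -3.56 (50% overlap), -0.58 (widened by 500 bp), -3.90 (centres), -2.74 (replicate 2 clusters) and -0.10 (first 50% of replicate 2). Over 10 parts it was positive at 0.017 with clusters of 3 or more (-1.19 to 1.22) and at 1.67 in the first 50% of replicate 1 by list order (-2.19 to 5.52). Of the negative values, those for 50% overlap and for centres had intervals below 0, and the cause was not tested. The intervals of all these values at like place or width, positive and negative, take the peak as the unit. They can be too narrow, since neighbours tended to be reproduced together. Replicate 2 peaks per Mb of span were 154 at 5 kb, 48.8 at 25 kb, 95.8 with repeated rows kept, 130.2 in the first 50% by list order and 113 in the upper 50% by width. Clusters numbered 62 at 5 kb, 824 at 25 kb, 1763 with 3 or more peaks, 97 with 7 or more, 91 and 79 in the first 50% by list order and by width, and 59 in replicate 2, by construction. The difference by neighbour, 19.6 points, moved to 16.4 over 4 parts and 14.9 over 10. The alternatives at like place, apart from those by width, 10 parts and both, and those for the number of clusters, the cluster as unit, the neighbours and leaving out the 3 clusters with most peaks were chosen after the data were seen. With either replicate left out there is no overlap. No paired analysis was possible because peak lists came from 1 group. Alternatives for genes and motifs were not run.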

Other observations

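The replicate 2 cluster with most peaks lay on chromosome 18 from 55060558 to 55117864, with 12 peaks of replicate 2 beside 9 of replicate 1. In replicate 1 the joining rule kept a shorter cluster there, from 55084927 to 55108397, in which 4 of 5 peaks were reproduced. It was picked after its values were seen. Of the 242 repeated rows of the replicate 1 list 34 belonged to clustered peaks and 85 to lone peaks.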
